A study of Mus musculus with 24 samples.

Results

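A set of 6 mature microRNAs that are widely used as markers of neurons were followed across the mouse eye: miR-124-3p, both strands of miR-9 (miR-9-5p and miR-9-3p), miR-128-3p, miR-129-5p and miR-129-2-3p. They were chosen by name, and 6 of the 696 mouse miRNAs on the array met that rule. Single-colour Agilent miRNA arrays measured total RNA, labelled with Cy3, from C57BL/6J mice. From postnatal day 24, a frosted plastic diffuser covered the right eye for 10 days, a way of inducing myopia by form deprivation, and the untreated left eye of each animal served as the control. All eyes were taken at an age of 34 days. There were 6 whole-eye arrays titled control and 6 titled myopia, and 3 arrays of each title for dissected retina and for dissected sclera, 24 in all. The series text counts 15 mice, 6 for whole eyes and 9 each for retina and sclera, so that both dissected tissues came from the same animals. The labels do not say which animals gave which array, or whether RNA of several animals was pooled. The p-values below therefore measure the spread between these arrays, which may be partly technical. The main tests treated the arrays as independent units, although both arms used eyes of the same animals and retina and sclera shared animals.

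The arms need a caution that applies to every myopia and control value below. For retina and sclera, the titles name one arm while the source name and the phenotype field name the other, and a free-text description of the treatment names the same arm as the phenotype field there but the opposite one for the whole eye. Groups are therefore called "titled control" and "titled myopia", and in retina and sclera the direction of the arm difference is not settled. For the whole eye these 3 labels do not conflict. The tissue comparisons take both arms together with equal weight and do not depend on this.

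MicroRNAs are short RNAs that guide the silencing machinery to messenger RNAs. The target is recognised mainly by pairing to the seed, the bases near the 5′ end of the miRNA. miR-124 is the abundant miRNA of differentiated neurons, retinal photoreceptors included, and lowers many transcripts of non-neuronal cells. miR-9 acts in neural progenitors and neurons, and both strands of its precursor are functional. miR-128 is a miRNA of postmitotic neurons that restrains excitability, and miR-129 is a neuronal miRNA linked to synaptic scaling. The sclera, the collagen coat of the eye, consists mainly of fibroblasts and their matrix.

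Mature sequences of 5 of the 6 members were matched in RefSeq (GRCm38.p6) and are shown because they separate these 5 into different seeds. Bases 2 to 8, the seed, are in capitals.
mmu-miR-9-5p: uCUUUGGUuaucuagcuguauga
mmu-miR-9-3p: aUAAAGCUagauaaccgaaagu
mmu-miR-128-3p: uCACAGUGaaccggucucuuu
mmu-miR-129-5p: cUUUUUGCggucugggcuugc
mmu-miR-129-2-3p: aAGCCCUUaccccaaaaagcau
No seed was shared between these members, and for each of the 5, 0 other mature names in the RefSeq table carried the same 7 letters. These 5 members therefore resemble each other below in tissue distribution and not in seed. The seed of miR-124-3p was not compared.

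Both strands of miR-9 are cut from the same hairpins, of 3 genes. miR-129-2-3p shares the Mir129-2 hairpin with miR-129-5p, which Mir129-1 also yields. The hairpins of Mir9-1 and Mir129-2 (RefSeq, GRCm38.p6) are shown with both mature strands in capitals, the 5p strand first.
Mir9-1: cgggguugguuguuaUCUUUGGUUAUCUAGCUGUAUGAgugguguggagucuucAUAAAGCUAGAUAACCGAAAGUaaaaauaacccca
Mir129-2: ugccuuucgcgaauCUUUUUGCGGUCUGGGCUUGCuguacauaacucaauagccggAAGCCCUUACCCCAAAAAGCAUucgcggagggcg

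Each member was read by 2 probes that differ in length by 1 base. The array files placed the longer probe of miR-124-3p at 3 sites of the mm9 genome: chr2:180628793-180628807, chr3:17695728-17695742 and chr14:65209551-65209565, all on the plus strand. miR-9-5p also had 3, all on the plus strand, at chr3:88019539-88019557, chr7:86650169-86650187 and chr13:83878430-83878448. miR-9-3p lay beside it at each of these. miR-128-3p was placed at chr1:130098982-130099001 on the plus strand and at chr9:112021188-112021207 on the minus strand. The signal of a miRNA with several genes is the sum over those genes. miR-129-5p likewise had 2 sites, chr2:94081541-94081555 on the minus strand and chr6:28972630-28972644 on the plus strand, whereas miR-129-2-3p had 1, chr2:94081581-94081598 on the minus strand. In the RefSeq gene table, Mir128-1 lies within the span of R3hdm1 and Mir128-2 within that of Arpp21, both protein-coding. The 3 Mir9 genes, Mir124a-1, Mir124a-2 and Mir129-2 lie within the spans of long non-coding RNA genes (Gm3764 for Mir9-1 and Mir670hg for Mir129-2, for example), and no gene of the table spans Mir124a-3 or Mir129-1.

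The probes of miR-129-2-3p are shown because their values differed, as described below. They are DNA, 5′ to 3′, with the base that only the longer one has in capitals.
17-base probe: atgctttttggggtaag
18-base probe: atgctttttggggtaagG
Against the hairpins of other genes, the 18-base probe had as few as 1 mismatch, to Mir129-1, whose own 3p strand was not measured separately here. The longer probes of the other 5 members had at least 2 mismatches to every hairpin outside their own family.

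A level below is the log2 of the scaled signal: the summed signal of a miRNA's probes, divided by a scaling value, which is the 75th percentile of the same array among miRNAs that were detected on all 24. Levels are compared between arrays for one miRNA, never between miRNAs, because probes differ in brightness. The arrays detected 353 to 401 miRNAs in retina, 305 to 357 in whole eye and 274 to 317 in sclera. The array of the sclera titled control replicate 3 was the dimmest, with a 75th percentile of 424 signal units against 696 to 1255 on the other sclera arrays, and it had the fewest detected miRNAs (274). The members' differences from sclera, the ratios named for that tissue and its arm differences are given with and without this array. By limma, 8 of 8 fibroblast and mesenchymal miRNAs were called lower in retina than in sclera, as were 4 of 4 skeletal muscle miRNAs. Of the photoreceptor cluster (miR-183-5p, miR-96-5p and miR-182-5p), 3 of 3 were called higher. Among all 426 miRNAs tested, 30.5% were called lower in retina and 58.7% higher. The marker lists were chosen with earlier results of these data known, so they are not an independent check of the tissue labels.

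All 6 members were highest in retina, intermediate in whole eye and lowest in sclera, and the ranges of the 3 tissues did not overlap for any of them. Of the 426 miRNAs tested, 17.1% had this order without overlap. The ranges of retina and sclera did not overlap for 70.0%, those of whole eye and retina for 57.5% and those of whole eye and sclera for 45.3%. The other 5 members were detected on all 24 arrays. miR-129-5p was detected on 12 of 12 whole-eye arrays and 6 of 6 retina arrays but on 3 of 6 sclera arrays. In bulk tissue, fewer cells that make a miRNA and less of it per cell cannot be told apart.

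**Figure D1:**
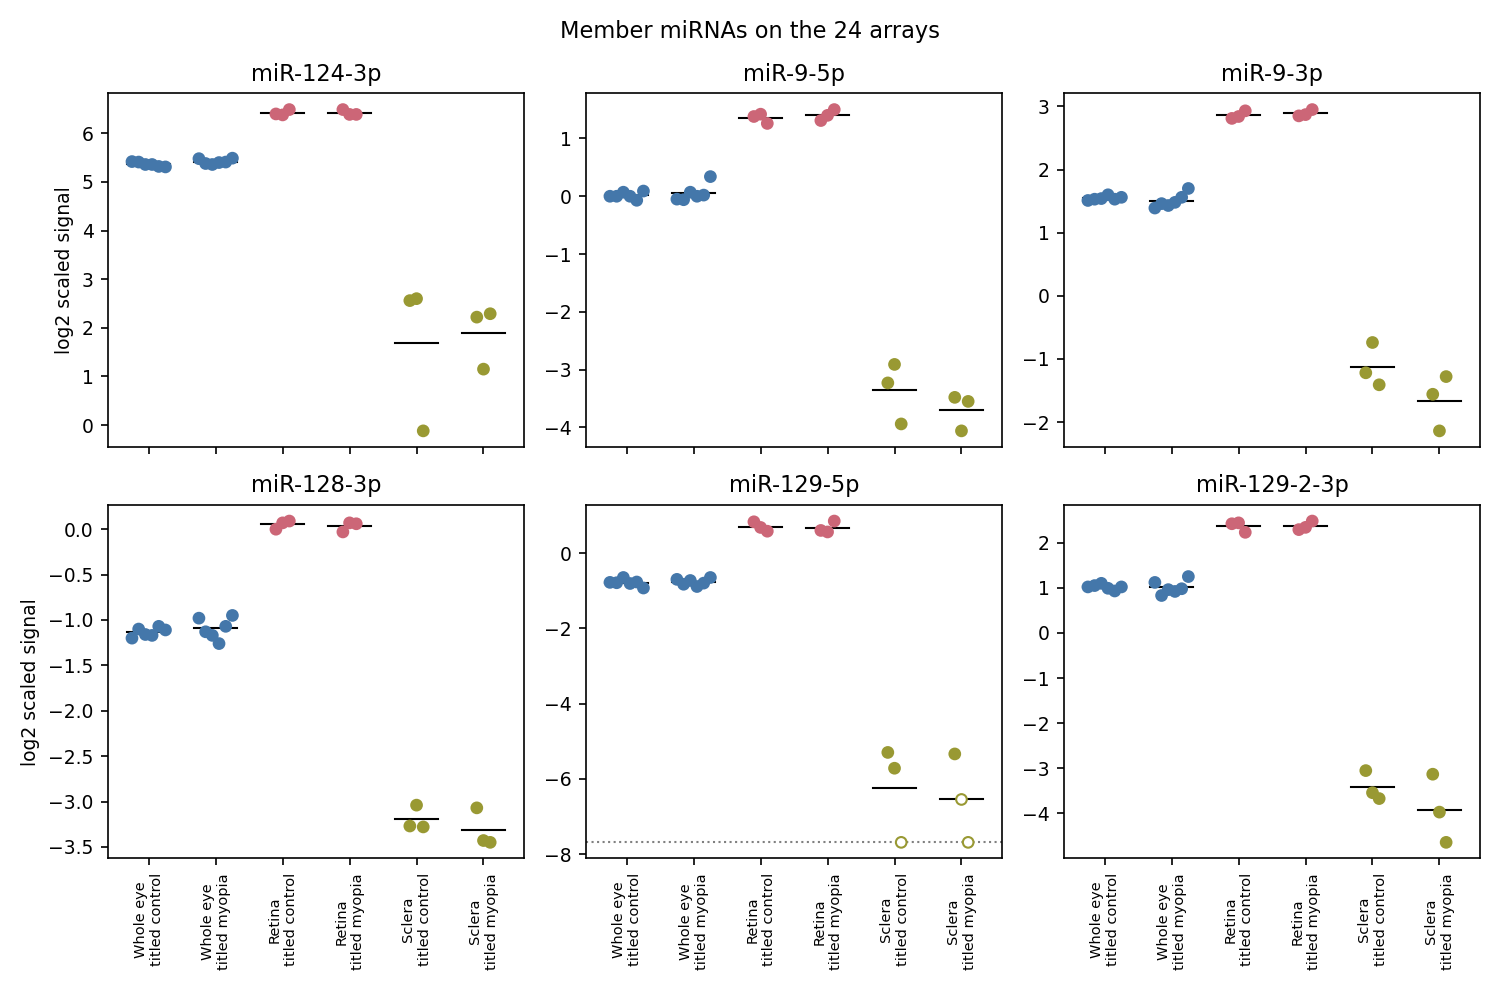
Log2 scaled signal of each member (vertical axis) on every array, by tissue and titled arm (horizontal axis); each point is 1 array, each bar the group mean, open points were not detected and the dotted line is the floor at -7.69. The 6 retina arrays lie above the 12 whole-eye arrays and these above the 6 sclera arrays in every panel.

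miR-124-3p had a log2 level of 6.38 to 6.49 on the 6 retina arrays (median 6.40), 5.31 to 5.49 on the 12 whole-eye arrays (median 5.39) and -0.12 to 2.60 on the 6 sclera arrays (median 2.26). The retina and whole-eye arrays were tightly grouped, while sclera spanned 2.73 log2 units. Retina exceeded sclera by 4.64 ± 0.31 (log2, SE; 24.9-fold; adjusted p = 1.13e-11 by limma). Without the dimmest sclera array the difference was 4.09 (adjusted p = 1.17e-16 by limma).

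miR-9-5p, the strand that lowers targets such as the repressor REST, stood at 1.26 to 1.5 in retina (median 1.39), -0.07 to 0.34 in whole eye (median 0) and -4.06 to -2.91 in sclera (median -3.52). Retina exceeded sclera by 4.91 ± 0.13 (log2, SE; 30.0-fold; adjusted p = 1.12e-18 by limma). Its sister strand miR-9-3p ranged from 2.81 to 2.95 in retina (median 2.86), from 1.39 to 1.70 in whole eye (median 1.53) and from -2.14 to -0.74 in sclera (median -1.35). The retina minus sclera difference of miR-9-3p was 4.27 ± 0.11 (log2, SE; 19.3-fold; adjusted p = 1.47e-18 by limma). In both strands, the sclera arrays spread more widely than the retina arrays and stayed far below the lowest whole-eye array.

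miR-128-3p showed the smallest difference from sclera of the 6. Its level was -0.03 to 0.09 in retina (median 0.06), -1.26 to -0.95 in whole eye (median -1.12) and -3.45 to -3.04 in sclera (median -3.27). Retina exceeded sclera by 3.30 ± 0.07 (log2, SE; 9.84-fold; adjusted p = 2.76e-20 by limma). The sclera arrays spanned 0.42 log2 units for this member, more than the 0.12 of the retina arrays, and the whole-eye arrays spanned 0.31.

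With the processing described above, the miR-129 strands showed the largest differences from sclera. miR-129-5p was at 0.56 to 0.85 in retina (median 0.64) and -0.93 to -0.65 in whole eye (median -0.78). In sclera it was at -5.30 and -5.72 on the titled control replicates 1 and 2 and at -5.34 on the titled myopia replicate 1. On the other 3 sclera arrays it was not detected, and 2 of these were set to the floor of -7.69. Retina exceeded sclera by 7.06 ± 0.33 (log2, SE; 134-fold; adjusted p = 1.84e-14 by limma), and that size depends on the floor. With normexp, the background model described below, it was 2.74, smaller than for any other member except miR-128-3p. miR-129-2-3p ranged from 2.23 to 2.48 in retina (median 2.38), from 0.83 to 1.25 in whole eye (median 1) and from -4.64 to -3.05 in sclera (median -3.60). Its retina minus sclera difference was 6.03 ± 0.16 (log2, SE; 65.4-fold; adjusted p = 2.17e-18 by limma). With normexp neither strand had the largest difference, as that of miR-124-3p then exceeded that of miR-129-2-3p by 0.91. Without the dimmest sclera array, retina minus sclera was 4.67 for miR-9-5p, 4.10 for miR-9-3p, 3.18 for miR-128-3p, 6.61 for miR-129-5p and 5.88 for miR-129-2-3p, all called by limma.

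By limma, 6 of 6 members were called higher in retina than in sclera. Of the 426 miRNAs tested, 89.2% were called, 58.7% as higher in retina and 30.5% as lower, so the calls alone say little about the members, and the sizes say more: the median difference was 4.77 over the members and 0.81 over all miRNAs tested. That overall median moved with the processing, to 0.08 with the 75th percentile taken over all mouse miRNAs, to 0.20 after quantile normalization, to -0.05 in the authors' value table and to -0.85 with normexp background correction, a model-based subtraction. The normexp setting also added an offset of 50 signal units to every spot, and the part of that offset in the normexp values was not tested. The split of calls moved with the overall median. Of 380 calls 250 were higher in retina, against 181 of 354, 204 of 369, 163 of 354 and 68 of 313 under these alternatives in turn. All 6 members stayed called higher in retina under each of them. With miRNAs detected on all arrays only, 5 were called and miR-129-5p was not tested. Over the alternatives and the within-slide values, the differences ranged from 3.86 to 5.36 for miR-124-3p, 3.06 to 5.12 for miR-9-5p, 3.49 to 4.30 for miR-9-3p, 1.74 to 3.44 for miR-128-3p, 2.74 to 8.41 for miR-129-5p and 4.02 to 6.51 for miR-129-2-3p.

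**Figure D2:**
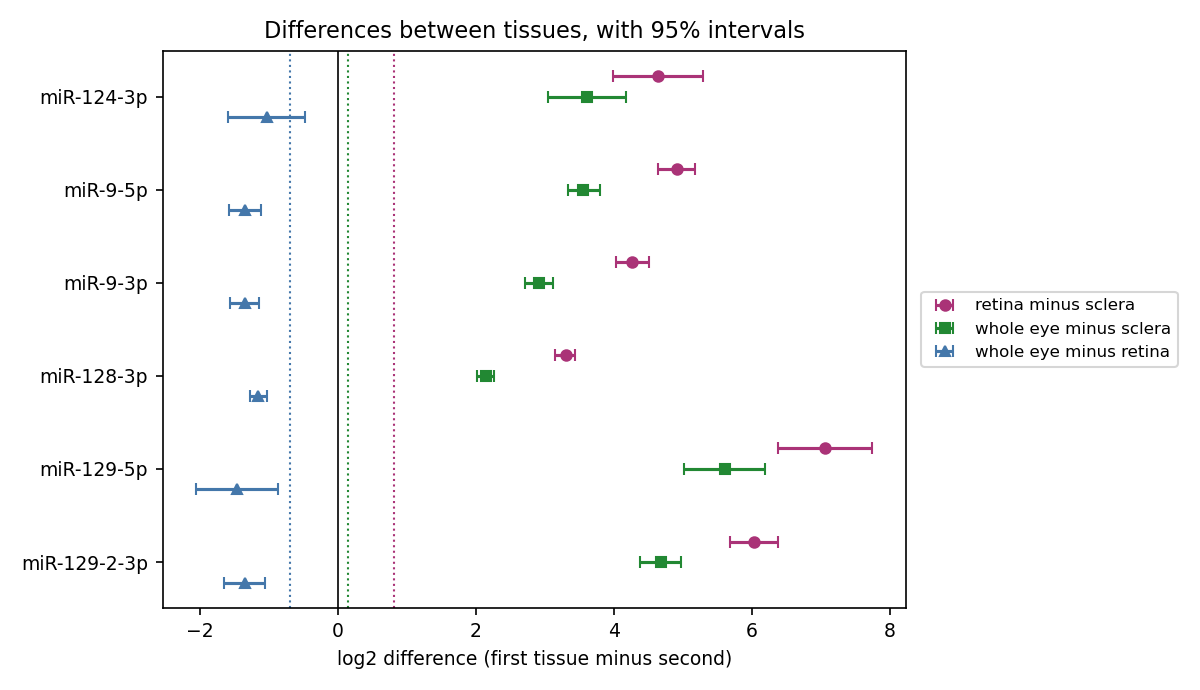
Log2 difference between tissues (horizontal axis) for each member (vertical axis), with 95% intervals from limma; circles are retina minus sclera, squares whole eye minus sclera and triangles whole eye minus retina. Dotted lines in the same colours mark the medians over the 426 miRNAs tested, 0.81, 0.15 and -0.70, and each member's circle and square lie to the right of their own median.

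With the scaling described above, the members in whole eye stood at 36.4% to 48.9% of their retina level. miR-124-3p was the nearest to retina, at 48.9% (log2 difference -1.03 ± 0.27, SE; adjusted p = 0.00149 by limma), and miR-129-5p the farthest, at 36.4% (-1.46 ± 0.28; adjusted p = 7.3e-05). The others lay between, at 44.8% for miR-128-3p, 39.4% for miR-9-5p, 39.2% for miR-9-3p and 39.2% for miR-129-2-3p. The fit pooled the spread of all arrays, so the SEs above also carry that of sclera. The SD of miR-124-3p was 0.06 in whole eye and 0.05 in retina but 1.07 in sclera. That of miR-129-5p was 0.09, 0.13 and 1.11 in the same order. Without the dimmest sclera array the differences were -0.97 for miR-124-3p (adjusted p = 4.75e-08 by limma) and -1.39 for miR-129-5p (adjusted p = 2.17e-06 by limma). By limma 6 of 6 members were called lower in whole eye than in retina, where 65.0% of the 426 miRNAs tested were called lower and 23.0% higher, 88.0% in all. The median difference was -1.35 over the members and -0.70 over all tested. With the 75th percentile over all mouse miRNAs, miR-124-3p lost its call (-0.48; adjusted p = 0.16 by limma), and 5 members remained. The sclera arrays were part of that fit too. The members ran from -0.91 to -0.48 with that scaling and from -1.48 to -0.93 after quantile normalization. There miR-124-3p was the lowest (-1.48), so its place nearest to retina depends on the scaling. Over all alternatives and within-slide values, the ranges were -1.48 to -0.48 for miR-124-3p, -1.44 to -0.80 for miR-9-5p and -1.38 to -0.80 for miR-9-3p. They were -1.17 to -0.61 for miR-128-3p, -1.51 to -0.91 for miR-129-5p and -1.44 to -0.80 for miR-129-2-3p. The overall split was 98 higher of 375 calls, against 137 of 318 with the percentile over all miRNAs and 131 of 333 after quantile normalization. It was 118 of 308 in the authors' value table and 51 of 163 with normexp.

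Against sclera, whole eye was higher by 3.61 for miR-124-3p, 3.56 for miR-9-5p, 2.92 for miR-9-3p, 2.14 for miR-128-3p, 5.61 for miR-129-5p and 4.68 for miR-129-2-3p (log2, SE 0.06 to 0.28). These were 6 of 6 calls by limma, where 70.9% of miRNAs were called, 40.1% as higher in whole eye and 30.8% as lower. The median over the members was 3.59, and that over all miRNAs tested was 0.15. The size for miR-129-5p depends on the floor here too. Over the alternatives and the within-slide values, these differences ranged from 3.02 to 4.29 for miR-124-3p, 1.79 to 3.89 for miR-9-5p, 2.40 to 2.96 for miR-9-3p, 0.73 to 2.27 for miR-128-3p, 1.42 to 6.96 for miR-129-5p and 2.71 to 5.23 for miR-129-2-3p. Of 302 calls 171 were higher in whole eye, against 49 of 365 with normexp, 132 of 290 with the 75th percentile over all miRNAs and 105 of 285 in the authors' value table. Without the dimmest sclera array, the members' differences were 3.13, 3.39, 2.82, 2.09, 5.22 and 4.59 in the same order, and 6 were called. The slides gave the same directions, each of the 3 holding 4 whole-eye, 2 retina and 2 sclera arrays. Each tissue and arm kept its own positions on the slide, so position and group cannot be told apart.

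Because a ratio within an array does not depend on the value that array is divided by, the log2 ratio of each pair of members was compared between tissues. This was done for pairs detected on all arrays of both tissues, with two-sided exact permutation tests adjusted over 35 tests. The smallest p these allow is 0.00216 for retina against sclera and 5.39e-05 for comparisons with the 12 whole-eye arrays. Of 10 pairs, 8 differed between retina and sclera, of 10, 9 differed between whole eye and sclera, and of 15, 10 differed between whole eye and retina. Pairs of other miRNAs were not compared, so these counts do not show anything particular to the members.

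Between retina and sclera, miR-128-3p and miR-129-2-3p each differed from the other 4 members compared, in opposite directions. Relative to miR-128-3p, miR-124-3p was 1.34 higher in retina than in sclera (log2), miR-9-5p 1.61 higher and miR-9-3p 0.97 higher, each with adjusted p = 0.00344 by the exact permutation test, with the ratios of the 6 retina arrays outside the range of the 6 sclera arrays. For the ratio of miR-128-3p to miR-129-2-3p the difference was -2.73 (adjusted p = 0.00344, exact permutation): the ratio lay between -2.43 and -2.14 in retina and between -0.22 and 1.19 in sclera. These 4 ratios kept their direction and call under normexp, quantile normalization, the authors' value table and the mean of log2 probe signals. The value of the miR-124-3p ratio was 0.96 without the dimmest sclera array, still with an adjusted p of 0.00316 (exact permutation). It ranged from 1.47 to 3.20 under those 4 alternatives. Without the same array the ratios of miR-9-5p and miR-9-3p to miR-128-3p differed by 1.53 and 0.97, and that of miR-128-3p to miR-129-2-3p by -2.74.

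Relative to miR-129-2-3p, miR-9-5p was lower in retina than in sclera (log2 -1.12) and so was miR-9-3p (-1.76), each with adjusted p = 0.00344 by the exact permutation test and ranges that did not overlap. For miR-124-3p the difference was -1.39 (adjusted p = 0.0204, exact permutation), with overlapping ranges. Without the dimmest sclera array these were -1.20, -1.77 and -1.77. The miR-9-5p ratio kept its call under the same 4 alternatives, from -1.02 to -0.46. With normexp the miR-9-3p ratio was -0.29 (adjusted p = 0.258, exact permutation). The miR-124-3p ratio was called under none of the 4: it was -0.21 after quantile normalization, -0.18 in the authors' value table, -0.80 with the mean of log2 probe signals and 0.91 with normexp (lowest adjusted p = 0.167, exact permutation).

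**Figure D3:**
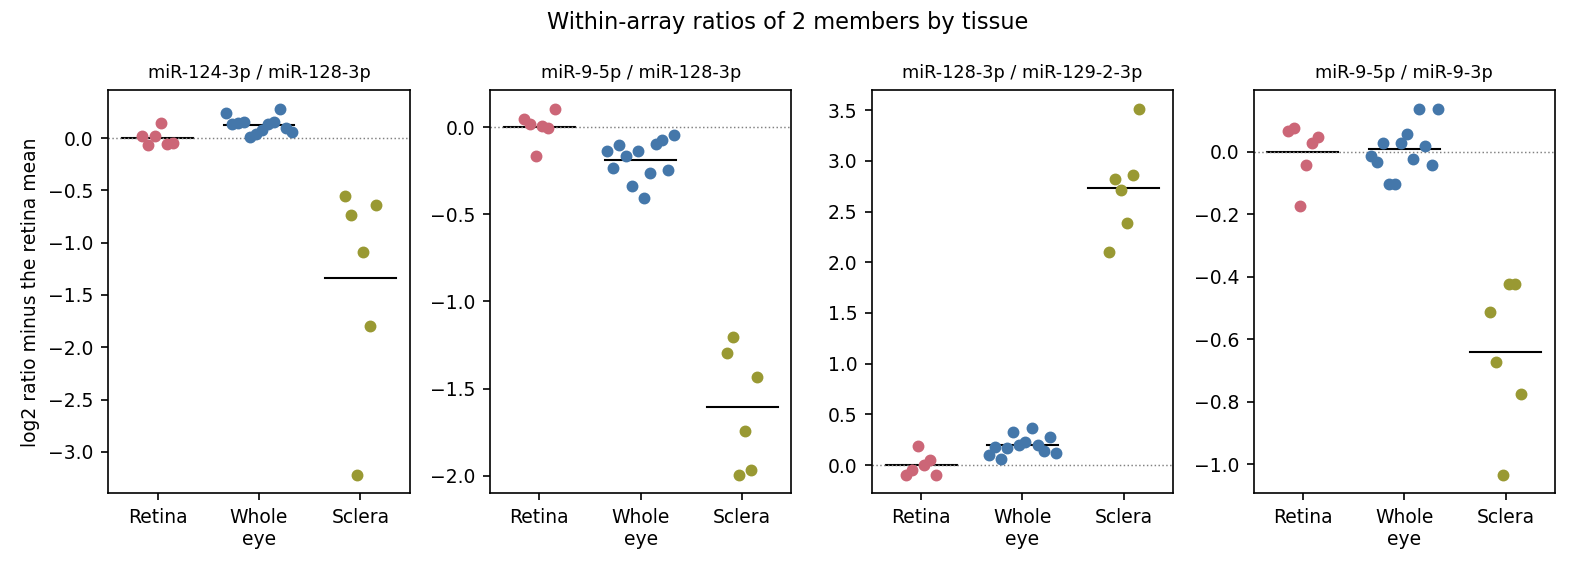
Log2 ratio of 2 members on each array minus the retina mean of that ratio (vertical axis), by tissue (horizontal axis); each point is 1 array and each bar a tissue mean. The sclera arrays lie above those of retina and whole eye in the panel of miR-128-3p over miR-129-2-3p and below them in the other panels. In that panel the sclera mean is 2.73 above the retina mean.

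The strands of one precursor were less clear. The ratio of miR-9-5p to miR-9-3p differed between whole eye and retina by 0.01 (log2; adjusted p = 0.897, exact permutation), less than the spread between arrays. Under the 4 alternatives this ranged from -0.20 to 0.06, with a lowest adjusted p of 0.00461 (exact permutation), so the lack of a call depends on the processing. The ratio was 0.64 higher in retina than in sclera and 0.65 higher in whole eye than in sclera (adjusted p = 0.00344 and 0.000209, exact permutation). Without the dimmest sclera array these were 0.56 and 0.57. With normexp, which adds the offset named above, they turned to -0.66 and -0.61, so the direction rests on how the background is treated. In sclera the unscaled signal of miR-9-5p was only 27.6 to 167 units, against 159 to 751 for miR-9-3p, each read by its own probes. The ratio of miR-129-5p to miR-129-2-3p was 0.11 lower in whole eye than in retina (adjusted p = 0.0238, exact permutation), with overlapping ranges, and -0.01 with normexp (adjusted p = 0.908). The adjusted p rose above 0.05 when the retina titled control replicate 1 or 3, or the titled myopia replicate 3, was left out (0.0685, 0.0526 and 0.0564).

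Between whole eye and retina the ratios moved little. The largest difference was that of miR-124-3p to miR-129-5p, 0.43 higher in whole eye, and miR-124-3p to miR-9-3p was 0.32 higher (adjusted p = 0.000209 for both, exact permutation, ranges not overlapping). After quantile normalization they were -0.11 and -0.53. The ratio to miR-9-3p was thus called in the opposite direction there (adjusted p at most 0.000269 under the 4 alternatives, exact permutation).

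The probe pairs of each member gave similar tissue differences with one exception. For miR-129-2-3p, retina minus sclera was 5.02 by the 17-base probe and 6.16 by the 18-base probe shown above, while whole eye minus retina was -1.36 and -1.35. For miR-124-3p the probes gave 4.57 and 5.02, for miR-9-5p 4.88 and 4.97, for miR-9-3p 4.25 and 4.30, and for miR-128-3p 3.26 and 3.39. One probe of miR-129-5p fell to -0.945 signal units on a sclera array and so has no log2 value there. The 10 spots of a probe varied by a median coefficient of variation of 29.6% for miR-129-5p and 17.4% for miR-129-2-3p in sclera, against 2.20% to 7.09% for the other members there.

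The sclera arrays differed among themselves in a pattern that was not the same for every member. Expressed as a percentage of the mean retina level, miR-124-3p was at 6.86, 7.08 and 1.07 on the sclera titled control replicates 1, 2 and 3, and at 5.44, 2.58 and 5.70 on the titled myopia replicates 1, 2 and 3. The highest array was 6.62-fold above the lowest. miR-128-3p on the same arrays was at 10.1, 11.8 and 10.0, and at 11.5, 8.99 and 8.87, a 1.33-fold range. Replicate 3 of the titled controls was thus the lowest array for miR-124-3p and in the middle of the order for miR-128-3p.

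The members that were also detected on all 6 sclera arrays spread to an intermediate degree, by 2.22-fold for miR-9-5p (2.30% to 5.11% of retina), 2.63-fold for miR-9-3p (3.10% to 8.14%) and 3.02-fold for miR-129-2-3p (0.777% to 2.34%). The photoreceptor miRNAs followed the order of miR-124-3p. miR-183-5p was at 8.66, 9.06 and 2.32% of retina on the titled controls and at 6.17, 3.10 and 8.02% on the titled myopia arrays. miR-96-5p reached 0.95% on the titled control replicate 3 and 8.34% on replicate 2, and both miRNAs ranked the 6 arrays exactly as miR-124-3p did. For miR-182-5p the 2 highest arrays changed places. The low value on the titled control replicate 3 was not particular to these miRNAs. That array was also the lowest for several other neuronal miRNAs, miR-7a-5p among them (1.66%, not detected there). It was the highest for others, such as miR-132-3p (6.53%), miR-204-5p (92.4%) and miR-211-5p (50.3%). These are descriptions over 6 arrays. The part of retinal RNA in the sclera values, and that of the array's brightness, was not tested.

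**Figure D4:**
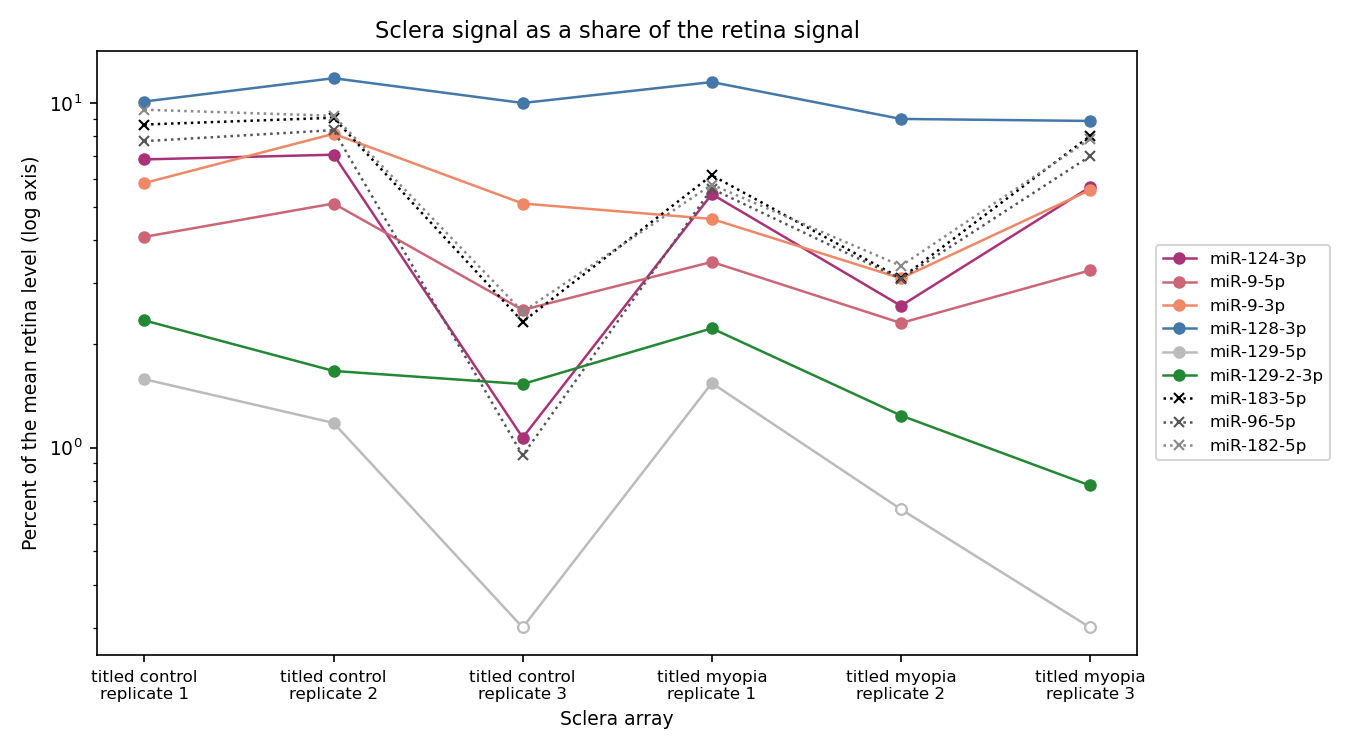
Signal on each sclera array (horizontal axis) as a percentage of the mean retina level (vertical axis, log scale) for the 6 members (solid lines) and 3 photoreceptor miRNAs (dotted lines, crosses); lines join values of 1 miRNA, and open points were not detected. miR-128-3p stays between 8.87% and 11.8%, while miR-124-3p and the photoreceptor miRNAs are lowest on the titled control replicate 3. miR-129-5p is equally low on that array and on the titled myopia replicate 3.

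The other members were left out of the search for the most alike miRNAs. Over all 24 arrays, the 3 miRNAs outside the set most like miR-124-3p by Pearson's r of the log2 level were miR-124-5p (0.997), which is the other strand of its own precursor, miR-183-5p (0.996) and miR-182-5p (0.996). miR-9-5p was most like miR-7a-5p (0.997), miR-130b-3p (0.997) and miR-551b-3p (0.996), and miR-9-3p most like miR-130b-3p (0.995), miR-7a-1-3p (0.993) and miR-181b-5p (0.993). For miR-128-3p these were miR-7a-1-3p (0.997), miR-138-5p (0.995) and miR-132-3p (0.995). miR-129-5p was most like miR-7a-5p (0.990), miR-7b-5p (0.989) and miR-551b-3p (0.987), and miR-129-2-3p most like miR-7b-5p (0.995), miR-551b-3p (0.995) and miR-344b-3p (0.994). Each r was taken over 24 arrays among 420 other miRNAs and is a description. To the most alike of the other members, r was 0.978 for miR-124-3p, 0.991 for miR-128-3p, 0.995 for both strands of miR-9 and 0.993 for both of miR-129. The arrays share 3 tissues, and the difference between them sets most of such an r.

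Other neuronal miRNAs showed the same direction as the members in most cases. Of 13 tested from a list of 15, 12 were called higher in retina than in sclera and 1 lower, with a median difference of 3.72 (log2). With normexp 5 were called higher and 2 lower, and with the other scalings, and in the authors' value table, these counts were 12 and 1. The highest was miR-7b-5p at 5.55, a miRNA of neurons and endocrine cells. It was detected on 0 of 6 sclera arrays (mean -7.33, near the floor of -7.69), so that size depends on the floor. With normexp the highest difference of the list was 1.98. The lowest was miR-212-3p at -0.43, an activity-regulated miRNA that shares its cluster with miR-132-3p (4.41). In whole eye against retina 11 of the 13 were called lower and 1 higher. Of the 13, 6 were detected on all 6 sclera arrays and 5 on none of them. Of the other strands of the member genes the array held miR-124-5p, which was 4.84 higher in retina than in sclera (adjusted p = 2.04e-12 by limma).

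The lists of other cell types moved in either direction between retina and sclera. The photoreceptor cluster was higher by 4.14 (miR-182-5p) to 4.50 (miR-96-5p), and the pigment epithelium and ciliary miRNAs, 2 of 2 called, by 0.95 (miR-204-5p) and 1.55 (miR-211-5p). Those of fibroblasts were lower by limma in retina, from miR-199b-5p at -8.30 to miR-140-5p at -1.96, and those of skeletal muscle from -4.46 (miR-1a-3p) to -1.27 (miR-206-3p). Of the cornea and lens epithelium miRNAs 3 of 4 were called lower, from -6.53 for miR-205-5p to -0.61 for miR-31-5p, and of the erythrocyte miRNAs 1 of 2, with miR-451 at -1.86 and miR-144-3p at -0.41. The directions of these lists were the same with normexp, with the other scalings and in the authors' value table. The sum of the scaled signals of the fibroblast list was 0.946 to 1.41 in retina, 3.06 to 6.01 in whole eye and 29.3 to 35.2 in sclera. That of the members was 101 to 107, 46.6 to 53.1 and 1.55 to 7.04 in the same order. Most of the member sum was miR-124-3p alone, at 83.1 to 90.2, 39.6 to 45 and 0.919 to 6.08. Such sums are weighted to the brightest probes and are compared between tissues only, not between lists.

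The covered and uncovered eyes were compared within each tissue. No member passed the test in whole eye, in retina or in sclera: limma called 0 of 6 in each, where 10.3%, 0% and 0% of the miRNAs tested were called (35 of 341, 0 of 396 and 0 of 311). At an unadjusted p under 0.05 there were 1, 0 and 0 members. The 2 arms overlapped for 6 of 6 members in every tissue. Over all miRNAs tested, the arms did not overlap for 9.68% in whole eye, 10.4% in retina and 13.2% in sclera.

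In whole eye, the level of miR-128-3p was -1.20 to -1.07 on the 6 titled control arrays (median -1.14) and -1.26 to -0.95 on the 6 titled myopia arrays (median -1.10). That of miR-124-3p was 5.31 to 5.42 (median 5.36) and 5.36 to 5.49 (median 5.40). Scaled within the whole-eye arrays alone, as the arm test was, titled myopia minus titled control was 0.13 ± 0.06 (log2, SE) for miR-128-3p (unadjusted p = 0.044, adjusted p = 0.195 by limma). It was 0.14 ± 0.07 for miR-124-3p (adjusted p = 0.21), and the range over the members was 0.05 to 0.14. The median over all 341 miRNAs tested was 0.08, so the members' shift was close to that of the array as a whole. With the 75th percentile over all mouse miRNAs, the values of the 6 members were -0.16 to -0.07 and the overall median -0.13. Without the whole-eye titled myopia replicate 2, miR-128-3p passed (0.17; adjusted p = 0.034 by limma).

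In retina, miR-124-3p was at 6.40, 6.38 and 6.49 on the titled control arrays and at 6.49, 6.39 and 6.39 on the titled myopia arrays. Both arms held the same narrow range. The members' differences were -0.08 to -0.01 (log2) with SEs of 0.11 to 0.15, and the widest 95% interval, that of miR-129-5p, ran from -0.46 to 0.30. The median over all 396 miRNAs tested was -0.07. In the fit of all 24 arrays, 51 retina miRNAs were called, 0 of them members.

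In sclera, miR-9-3p was at -1.22, -0.74 and -1.41 on the titled control arrays and at -1.56, -2.14 and -1.28 on the titled myopia arrays. The arms overlapped, and the difference was -0.37 ± 0.30 (log2, SE; adjusted p = 0.887 by limma). miR-124-3p had the widest interval, from -1.67 to 2.41 around 0.37. Leaving out one array at a time moved it from -0.67 to 0.88. Without the dimmest array, the titled control replicate 3, the 6 members were at -0.97 to -0.14, none called by limma (adjusted p = 0.59 to 0.778). Differences of 2-fold in either direction lie inside that interval, as they do for miR-129-5p (-2.09 to 1.66).

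**Figure D5:**
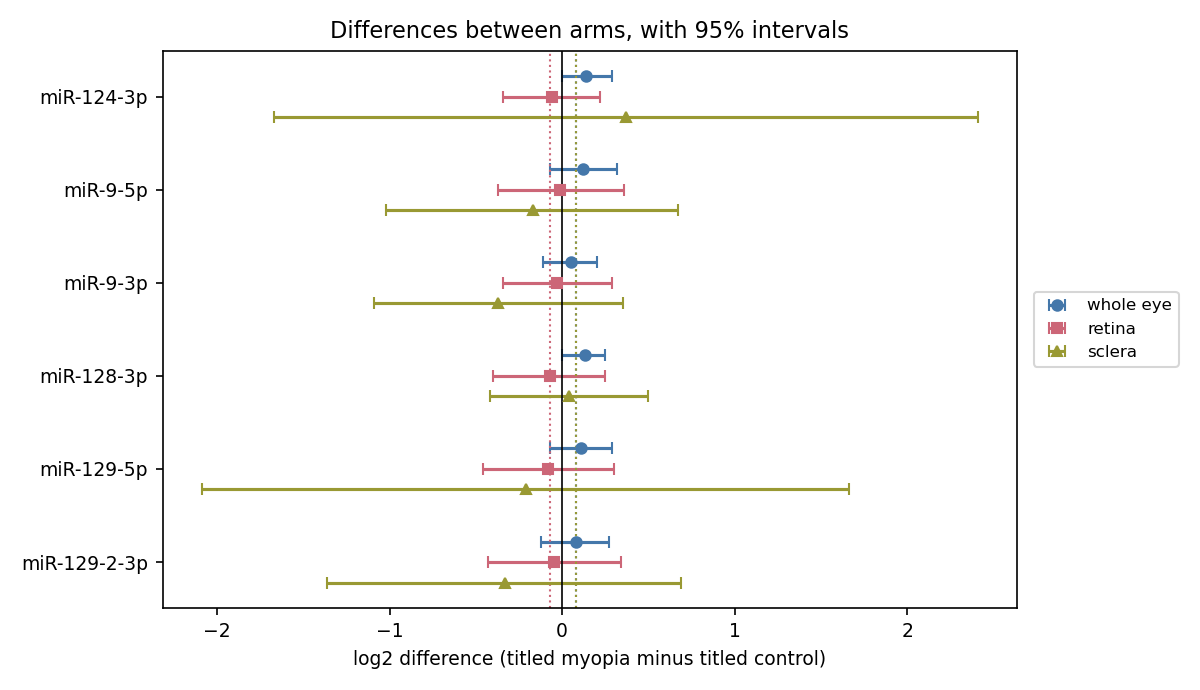
Log2 difference titled myopia minus titled control (horizontal axis) for each member (vertical axis) in whole eye (circles, 6 arrays an arm), retina (squares, 3 an arm) and sclera (triangles, 3 an arm), with 95% intervals from limma; dotted lines are the medians over all miRNAs tested. Estimates lie between -0.37 and 0.37, the sclera intervals are the widest, and for miR-124-3p and miR-128-3p in whole eye the lower bound is at 0.00.

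The arm differences were also compared between tissues. For retina against whole eye, sclera against whole eye and retina against sclera, limma called 0 of 6 members in each, where 1.17%, 2.35% and 1.64% of the 426 miRNAs were called. At an unadjusted p under 0.05 there were 0, 1 and 1, both miR-9-3p. Its arm difference in sclera minus that in whole eye was negative (log2 -0.50 ± 0.20, SE; adjusted p = 0.207 by limma) and that in retina exceeded that in sclera by 0.57 (± 0.23; adjusted p = 0.162). With the arms of retina and sclera taken from the phenotype field, 0 of 6 were called in each of these comparisons as well. Without the sclera titled myopia replicate 1, miR-129-2-3p passed for sclera against whole eye (-0.88; adjusted p = 0.044 by limma).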

How the data were processed

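The authors scanned 24 arrays and deposited the output of Agilent Feature Extraction 11, per the submitters' processing notes; genome positions in the files use mm9, per the file headers. The signal column used, gProcessedSignal, is the deposited background-corrected spot intensity. The authors also deposited a value table with log2 values per probe, per a match to the scanner signals (medians 3.18 to 4.07; its scaling was not stated), which served as an alternative. Other deposited columns used hold flags and detection marks.

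Unflagged spots (10 per probe) were averaged, probes summed per miRNA and each array scaled as the report describes, floored at the median lowest detected signal, and logged. Tests covered miRNAs that 2 of every 3 arrays detected in 1 or more groups. Differences were fitted in limma 3.58.1 (R 4.3.3) with Benjamini-Hochberg adjustment at 0.05: arms within a tissue, tissues and arm effects over all 24 arrays. The code was tested on simulated data. Named miRNAs are the 6 members, the 3 most alike to each by r, and the highest and lowest of each list. Members and lists were chosen with earlier results of these data known. No spot of a member was saturated, and 125 of 2880 spot values were flagged. The number of arrays limits precision.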

Additional observations from a re-analysis of the deposited data

How the results depend on the processing

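The tissue calls of the members kept their direction under every alternative and every left-out array; 1 call was lost, that of miR-124-3p in whole eye against retina. Counts of member calls stayed the same when any one array was left out, except for a range of 0 to 1 in the whole-eye arms (1 without the titled myopia replicate 2) and for the sclera against whole-eye arm effect (0 to 1, 1 without the sclera titled myopia replicate 1). Small arm values crossed 0. In whole eye, with the 75th percentile over all miRNAs, miR-124-3p was -0.07, miR-9-5p -0.09, miR-9-3p -0.16, miR-128-3p -0.08, miR-129-5p -0.10 and miR-129-2-3p -0.13. After quantile normalization these were 0.00 for miR-124-3p, -0.08 for miR-9-3p, -0.02 for miR-128-3p and -0.03 for miR-129-2-3p. With all 24 arrays in the fit, miR-9-3p was -0.04 and miR-129-2-3p -0.01. Within slide 2, miR-9-3p was -0.03, miR-128-3p -0.02, miR-129-5p -0.04 and miR-129-2-3p -0.10.

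In retina, normexp gave 0.04 for miR-124-3p, 0.06 for miR-9-5p, 0.06 for miR-9-3p and 0.03 for miR-129-2-3p. Quantile normalization gave 0.00, 0.04 and 0.02 for the first 3 of these, 0.03 for miR-128-3p, 0.08 for miR-129-5p and 0.03 for miR-129-2-3p. With all 24 arrays in the fit, miR-9-5p was 0.05, miR-9-3p 0.03 and miR-129-2-3p 0.01. In sclera, miR-128-3p was -0.03 with normexp, -0.03 with the percentile over all miRNAs, -0.13 in the authors' table and -0.13 with all 24 arrays. Leaving out 1 array moved the retina values from -0.12 to 0.07 for miR-9-5p, -0.16 to 0.01 for miR-9-3p and -0.18 to 0.04 for miR-129-2-3p. It moved the sclera values from -0.67 to 0.88 for miR-124-3p, -0.60 to 0.10 for miR-9-5p, -0.14 to 0.17 for miR-128-3p, -0.97 to 0.41 for miR-129-5p and -0.71 to 0.06 for miR-129-2-3p. The range of miR-129-5p covers only the 4 of 6 left-out fits in which it passed the detection filter. Of the ratios, miR-9-5p to miR-9-3p turned to -0.66 (retina against sclera) and -0.61 (whole eye against sclera) with normexp, and miR-124-3p to miR-129-2-3p to 0.91 (retina against sclera). For whole eye against retina, quantile normalization turned the ratio of miR-9-5p to miR-9-3p to -0.20. It turned that of miR-124-3p to miR-9-3p to -0.53 and that of miR-124-3p to miR-129-5p to -0.11. Left-out arrays moved the ratio of miR-9-5p to miR-9-3p from -0.03 to 0.02 in this comparison. The cause of these changes was not tested.

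Over all miRNAs, whole-eye arm calls numbered 35, against 22 with normexp, 96 after quantile normalization (32 higher) and 15 with miRNAs detected on all arrays only, where fewer were tested. Retina arm calls numbered 0, against 51 with all 24 arrays in the fit and up to 55 with 1 array left out, and sclera arm calls 0 against 2. That strict detection filter left 215, 211 and 192 calls for retina against sclera, whole eye against retina and whole eye against sclera, in place of 380, 375 and 302, and normexp left 163 of the 375. Arm-effect calls numbered 5 for retina against whole eye, 10 for sclera against whole eye and 7 for retina against sclera. Under the alternatives with all arrays they lay at 0 to 10, 0 to 13 and 0 to 16. With the arms of the phenotype field they were 81, 0 and 7. Leaving out 1 array moved them more, from 0 up to 31, 25 and 82. Same-numbered arrays of the 2 arms deviated together for some numbers and not for others (r of -0.219 to 0.491 in whole eye, -0.216 to 0.64 in retina, -0.369 to -0.101 in sclera; 2 of 6, 2 of 3 and 0 of 3 arrays were closest to their own number), so the numbers, which the labels tie to no animal, were not taken as pairs. With the replicate number as a block, 0 of 6 members were called in each arm and arm-effect comparison and 6 of 6 in each tissue comparison, as without it. The block moved whole-eye arm calls over all miRNAs to 45 and the retina against sclera arm-effect calls from 7 to 16. Signal over background limits miR-129-5p in sclera most.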
